A study of Mus musculus with 15 samples.

Results

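The genes described here encode 10 surface proteins by which B cells are recognized or that serve as antibody targets in lymphoid tumors: Ms4a1, Cd37, Cd53, Cd52, Cd24a, Ptprc, Spn, Cd44, Sdc1 and Cd38. They were taken by name, from a list drawn up with earlier results of these data known, and make up 10 of the 41388 genes counted. Of these, 9 passed the filter on low counts and were tested, and Cd38 did not. A20, a B-cell lymphoma line from BALB/c mice, was sequenced as the parental line, in which Foxp1 is wild type, and as 4 CRISPR/Cas9 clones carrying a mutation of the transcription factor gene Foxp1. In E6.1 and E6.2 the mutation lies in exon 6, and in E7.1 and E7.2 in exon 7. Each of the 5 lines gave 3 libraries of mRNA from bulk cultures at separate passages, with no treatment named in the labels. Every clone grew from a single sorted cell, so the Foxp1 mutation and any other property of that clone cannot be told apart. In bulk libraries fewer cells carrying a transcript and less transcript per cell cannot be told apart either.

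Ms4a1 encodes CD20, a membrane-spanning protein of mature B cells and the target of rituximab. CD37 and CD53 are leukocyte tetraspanins, which gather other membrane proteins into clusters, and CD52 and CD24 are very short glycoproteins held in the membrane by a GPI anchor, CD52 being the target of alemtuzumab. CD45, encoded by Ptprc, is the phosphatase that sets the activity of Src-family kinases below the B-cell receptor. CD43, encoded by Spn, is a sialomucin that most resting mature B cells lack, CD44 is the main hyaluronan receptor, syndecan-1 (CD138, from Sdc1) marks plasma cells, and CD38 is an NAD-consuming ectoenzyme targeted by daratumumab in myeloma.

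The libraries held between 26328054 and 39181530 counts in genes. Of the 9 B-cell marker genes found, all were present in every library, with a summed level of 5197 to 6967 CPM (counts per library size scaled to a common total, with TMM normalization). Markers of T cells summed to 0.241 to 2.75 CPM, of NK cells to 0.616 to 4.19 and of granulocytes to 0.211 to 1.20. In the lists of other cell types, Cd3e, Cd8b1, C1qa, C1qb, Ncr1 and S100a8 were at 0 in all 15 libraries. Other genes of these lists were detected, among them Cd68 (120 to 947 counts per library), Adgre1 (14 to 250), Klrb1c (14 to 120), Cd28 (2 to 87) and Mpo (5 to 30). Foxp1 itself stood at 138 ± 32.7 CPM (mean ± SD, n = 3) in parental cells. The exon 6 clones had 104 ± 4.60 (E6.1) and 106 ± 2.38 CPM (E6.2), and the exon 7 clones 56.8 ± 13.0 (E7.1) and 43.0 ± 8.19 CPM (E7.2). The fall of the transcript passed the test in E7.1 (log2 fold change -1.29, adjusted p = 0.00688) and E7.2 (-1.69, adjusted p = 0.00116, edgeR quasi-likelihood test with Benjamini-Hochberg adjustment) but not in the exon 6 clones. A mutation in the coding sequence need not lower the transcript. Among clones E6.2 and E7.2, replicate 3 stood apart from the other libraries of its line: 23.6% and 16.7% of tested genes lay at least 2-fold from those libraries, against 2.58% to 9.48% in 12 of the others and 16.7% in replicate 1 of E6.2. The deviations of these 2 libraries resembled each other more than those of any other pair of libraries from different lines (r = 0.426 across genes, the highest of 90 pairs). Macrophage markers summed to 32.7 CPM in replicate 3 of E7.2, of which Cd68 alone gave 30.4, and to 5.81 to 19.3 CPM in the other libraries. C1qa and C1qb were at 0 in all, and Lyz2 and Cd14 had at most 1 count in any library. The part of these markers in the results was not tested. Where these libraries move a result by much, its value without both is given as well.

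In parental cells the 10 genes fell into 2 ranges of abundance. Compared per transcript length, as RPKM (CPM per kilobase of exon), Cd24a stood at 144 ± 36.0 (SD, n = 3), Cd52 at 109.7 ± 22.9, Ms4a1 at 106 ± 13.9, Cd53 at 70.1 ± 4.69, Ptprc at 37.6 ± 3.26 and Cd37 at 31.5 ± 2.41 RPKM. These 6 genes lay between the 84.8 and 97.3 percentiles of the 13904 tested genes, and Cd24a, Cd52 and Ms4a1 could not be ordered beyond their spread. Far below them came Sdc1 at 0.829 ± 0.471, Spn at 0.258 ± 0.050, Cd44 at 0.0636 ± 0.0433 and Cd38 at 0.0316 ± 0.0109 RPKM, the first 3 of these between the 2.37 and 21.0 percentiles. The plasma-cell marker Sdc1, the ectoenzyme gene Cd38, the adhesion receptor Cd44 and the sialomucin Spn were thus near the lower end of what was measured. The same 6 genes occupied the upper ranks in each of the 4 clones, and Cd38 was last in all 5 lines. Of the exonic bases of Cd52, 14.5% are shared with exons of Crybg2, and reads lying there could not be assigned to one gene. The other members shared none, apart from 4 bases of Cd37.

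**Figure D1:**
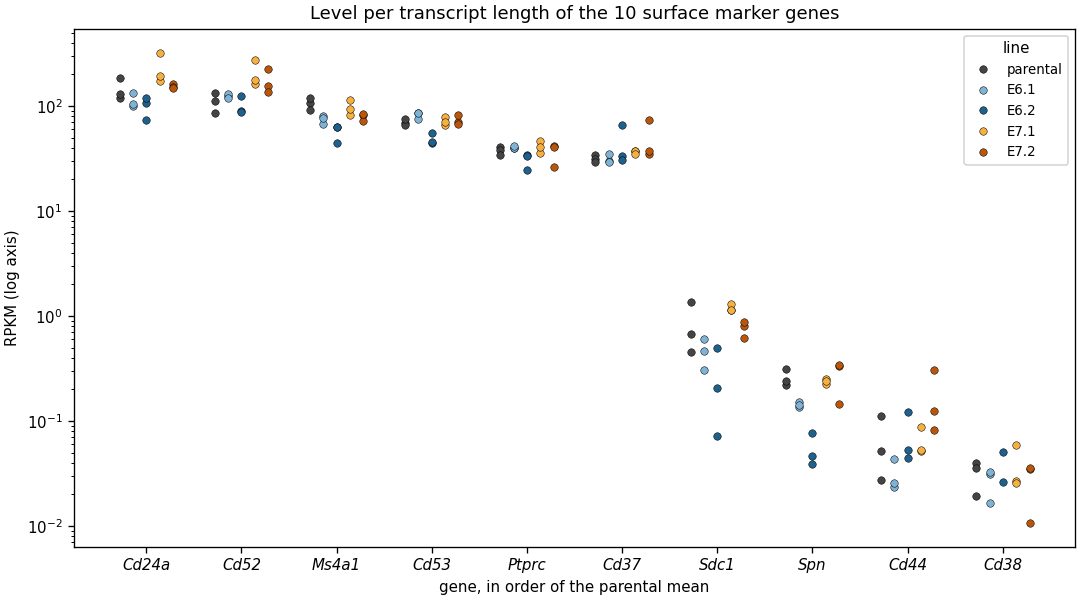
Level of each gene per transcript length (RPKM, log axis) in every library, colored by line, with genes in order of the parental mean. A library at 0 (Cd38 in E6.2 replicate 3) is not drawn. Cd24a, Cd52, Ms4a1, Cd53, Ptprc and Cd37 lie at or above 24.7 RPKM in all 15 libraries (lowest in Ptprc), and Sdc1, Spn, Cd44 and Cd38 at or below 1.36 (highest in Sdc1).

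RefSeq promoter windows, from 250 bases before to 50 bases from the transcript start, were available for 7 of the 10 members (8 windows, build GRCm38.p6). Because Foxp1 is a forkhead factor, they were searched on both strands for the forkhead core TGTTTAC, which 3.65% of all 32851 promoter windows of that length hold, and for GAGGAAG, a core of the PU.1 type bound by the ETS factors of B cells, which 13.6% hold. None of the 8 windows held TGTTTAC, and 4 held GAGGAAG, those of Cd37, Cd53, Cd44 and Sdc1. The windows shown are those available for members that passed a test in at least 1 comparison between lines, Spn (chr7:127137774-127138073, minus strand), Sdc1 (chr12:8771146-8771445, plus strand) and Cd53 (chr3:106790100-106790399, minus strand). They are written 5′ to 3′ on the strand of the gene, with GAGGAAG or its reverse complement in capitals.
Spn: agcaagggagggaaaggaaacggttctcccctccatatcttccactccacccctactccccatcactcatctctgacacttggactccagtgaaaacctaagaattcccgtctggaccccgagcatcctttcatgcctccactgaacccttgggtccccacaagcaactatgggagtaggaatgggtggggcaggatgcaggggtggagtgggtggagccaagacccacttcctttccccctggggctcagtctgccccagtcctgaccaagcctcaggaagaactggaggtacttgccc
Sdc1: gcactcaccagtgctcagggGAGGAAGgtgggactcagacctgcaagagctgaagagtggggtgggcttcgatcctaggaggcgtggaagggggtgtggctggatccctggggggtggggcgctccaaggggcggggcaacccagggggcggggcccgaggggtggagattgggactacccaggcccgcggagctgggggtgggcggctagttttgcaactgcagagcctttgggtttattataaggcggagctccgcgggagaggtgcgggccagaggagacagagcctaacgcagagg
Cd53: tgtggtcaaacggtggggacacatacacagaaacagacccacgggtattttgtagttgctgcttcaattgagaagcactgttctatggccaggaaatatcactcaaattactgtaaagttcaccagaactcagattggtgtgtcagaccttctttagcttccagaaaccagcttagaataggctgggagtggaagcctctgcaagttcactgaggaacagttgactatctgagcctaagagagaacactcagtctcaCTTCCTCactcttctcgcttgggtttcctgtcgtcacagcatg
In Sdc1 the match begins at base 21 of the window, far before the start, and in Cd53 at base 258, within the transcript, on the opposite strand. The Spn window holds neither motif. These letters describe the windows and were not tested for binding.

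Ms4a1, the gene for CD20 (mm10 chr19:11249675-11266241, minus strand), was lower in E6.2. Its level was 659.9, 570.3 and 743 CPM in the parental replicates and 273, 386 and 391 CPM in those of E6.2. Every E6.2 library was below every parental library. The level fell by 0.91 on the log2 scale (SE 0.18, 1.88-fold lower, adjusted p = 0.0227 by the edgeR quasi-likelihood test with Benjamini-Hochberg adjustment over all tested genes). The other exon 6 clone, E6.1, gave 412, 495 and 472 CPM, also below all parental libraries, but its difference of -0.52 (95% interval -0.90 to -0.13) did not pass the adjusted threshold (adjusted p = 0.493). E7.1 (709.8, 509.8 and 574 CPM) overlapped the parental range and differed by -0.14 (-0.52 to 0.25), and E7.2 (512, 447 and 524 CPM) lay below it at -0.41 (-0.80 to -0.03, adjusted p = 0.357). In order of the mean the lines ran parental, E7.1, E7.2, E6.1 and E6.2, and of the 4 neighboring pairs the libraries of E6.1 and E6.2 alone did not overlap. Leaving out E6.2 replicate 1 (adjusted p = 0.0646), or parental replicate 1 (0.0635) or 3 (0.123), removed the call, as did a fit of these 6 libraries alone (0.256), with log2 values from -0.90 to -0.77. Without both deviating libraries it stood at -1.0 (adjusted p = 0.0179).

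The tetraspanin gene Cd53 (chr3:106758861-106790149) fell in E6.2 against E6.1. It was measured with the least scatter of the 9 tested, with a biological coefficient of variation of 0.133 that is smaller than that of all but 6.26% of tested genes. Its level was 193, 186 and 211 CPM in parental cells, 238, 209 and 239 in E6.1 and 125, 156 and 127 in E6.2. All 3 libraries of E6.2 were below those of every other line. Against E6.1, the other clone of the same exon, Cd53 fell by 0.75 on the log2 scale (SE 0.13, 1.68-fold lower, edgeR adjusted p = 0.00854), whereas against parental cells its difference of -0.53 (SE 0.13) missed the threshold (adjusted p = 0.0833). The exon 7 clones, with 219, 185 and 197 CPM in E7.1 and 199, 189 and 232 in E7.2, overlapped the parental range, and the intervals of their differences ran from -0.25 to 0.31 and from -0.21 to 0.35. The Cd53 call between the exon 6 clones was lost without E6.1 replicate 1 (adjusted p = 0.0509) or replicate 3 (0.0601) and in a fit of those 6 libraries alone (0.128). That against parental cells appeared without E6.2 replicate 2 (0.0428) or without E7.2 replicate 3 (0.0481), where the fold changed little (-0.65 and -0.53).

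Cd37 (chr7:45233632-45239115) passed the threshold in no comparison of the fit of all libraries, and it was high in both deviating libraries. Parental cells gave 120.5, 111 and 103 CPM, E6.1 105, 122 and 103, and E7.1 131, 132 and 123. In E6.2 the values were 119, 109 and 234 CPM, and in E7.2 123, 130.5 and 261 CPM. Replicate 3 of both clones was thus 2.06-fold the mean of the other libraries of its line, at the 91.2 percentile of tested genes in E6.2 and the 92.2 percentile in E7.2. The difference from parental cells was 0.46 for E6.2 and 0.62 for E7.2 on the log2 scale, and 0.02 and 0.22 without both libraries. Over the 15 libraries, Cd37 followed Iqsec2 (r = 0.969) and the kinase gene Pim3 (r = 0.964) most closely.

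Both GPI-anchored markers had their highest means in the exon 7 clones. Cd52 (chr4:134082448-134095082) stood at 156, 102 and 133 CPM in parental cells, at 148, 155 and 143 in E6.1 and at 107, 105 and 148 in E6.2. In E7.1 it reached 325, 193 and 209.8 CPM, and in E7.2 182, 162 and 268 CPM. All 6 libraries of the exon 7 clones were above all 9 others. Against parental cells the log2 difference was 0.90 in E7.1 (SE 0.24, adjusted p = 0.0692) and 0.65 in E7.2 (SE 0.24, adjusted p = 0.290, both edgeR), neither past the threshold. The E7.1 value passed it in 6 of 22 alternatives, including the fits without parental replicate 1 (adjusted p = 0.0302), without E6.2 replicate 3 (0.0306) and without E7.2 replicate 3 (0.0328). Over all 22 it ranged from 0.00886 with DESeq2 to 0.311 without E7.1 replicate 1, the highest library of that clone.

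Cd24a (chr10:43579169-43584262), whose product is the heat-stable antigen, gave 336, 214 and 234 CPM in parental cells, 182, 238 and 190.0 in E6.1, and 133, 192 and 215 in E6.2. E7.1 stood at 585, 310.4 and 351 CPM and E7.2 at 290.4, 273 and 267. E7.1 was the highest line and E6.2 the lowest, and of the neighboring lines E7.1 and E7.2 alone did not overlap. Replicate 1 of E7.1 was high for both GPI-anchored genes, 1.77-fold the mean of the other 2 libraries for Cd24a and 1.61-fold for Cd52. Against parental cells the log2 difference of Cd24a was 0.67 in E7.1 (95% interval 0.14 to 1.20, adjusted p = 0.150), 0.08 in E7.2 (-0.44 to 0.61), -0.36 in E6.1 (-0.89 to 0.17) and -0.54 in E6.2 (-1.07 to -0.01), none past the threshold.

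Ptprc (chr1:138063407-138175706), among the most abundant of the 10 in CPM, did not pass the test in any comparison. Its levels were 723, 675 and 607 CPM in parental cells, 701, 707 and 731 in E6.1, and 826, 631 and 717 in E7.1. E6.2 gave 600.4, 596 and 439 CPM, each below the lowest parental library, and E7.2 gave 731, 730.0 and 469. The lowest value of both clones was that of replicate 3, at 0.733 and 0.641 of the mean of its line's other libraries. The 95% intervals of the difference from parental cells ran from -0.32 to 0.51 (E6.1) and -0.71 to 0.12 (E6.2) for the exon 6 clones, and from -0.30 to 0.53 (E7.1) and -0.47 to 0.36 (E7.2) for those of exon 7.

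Spn, the gene for CD43 (chr7:127132232-127137823), had the largest called change of the members, although at a low level. Parental libraries held 48, 38 and 38 counts (1.45, 1.01 and 1.11 CPM), and E6.2 libraries 9, 7 and 6 counts (0.354, 0.212 and 0.180 CPM). These groups did not overlap, and Spn fell by 2.26 on the log2 scale in E6.2 (SE 0.40, 4.80-fold lower, edgeR adjusted p = 0.0100). E6.1 lay between them at 0.698, 0.621 and 0.650 CPM, below the parental range, with a difference of -0.85 (95% interval -1.64 to -0.07, adjusted p = 0.670). The exon 7 clones overlapped parental cells, with 1.15, 1.05 and 1.10 CPM in E7.1 and 1.53, 1.57 and 0.674 in E7.2. The low value in E7.2 was that of replicate 3, at 0.434 of the mean of the others. The call in E6.2 was lost without parental replicate 1 (adjusted p = 0.0576) and in the fit of these 6 libraries alone (0.216), and without both deviating libraries the difference was -2.09 (adjusted p = 0.00781).

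Sdc1 (chr12:8771323-8793715) spread widely between libraries of one line. It stood at 5.17, 2.59 and 1.72 CPM in parental cells, at 1.17, 2.29 and 1.75 in E6.1 and at 0.276, 0.786 and 1.89 in E6.2. E7.1 gave 4.34, 4.98 and 4.30 CPM and E7.2 3.04, 3.33 and 2.34. The parental range covered those of both exon 7 clones, so neither could be ordered against parental cells. All E7.1 libraries were above all E7.2 libraries, a difference that did not pass the threshold. In E6.2 the difference of -1.66 (SE 0.53) was not past the threshold (edgeR adjusted p = 0.206). Its replicate 3 was 3.57-fold the mean of the other 2, the gene standing at the 98.6 percentile there, and without that library the difference was -2.52 (adjusted p = 0.0372). Without both deviating libraries it was -2.53 (adjusted p = 0.0240).

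Cd44 (chr2:102811141-102901665) and Cd38 (chr5:43868809-43912375) were close to or at the limit of detection. Cd44 had between 5 and 64 counts per library, with a parental mean of 0.431 ± 0.293 CPM (SD, n = 3). The means of the clones were 1.15 ± 0.793 (E7.2), 0.497 ± 0.287 (E6.2), 0.431 ± 0.135 (E7.1) and 0.209 ± 0.0741 CPM (E6.1). The highest library was E7.2 replicate 3 at 2.05 CPM, 2.92-fold the mean of the other 2, and all neighboring lines overlapped. Cd44 was called by edgeR in no comparison, while DESeq2 called it in the test of any difference among the lines (adjusted p = 0.0305). Its intervals were wide, from 0.13 to 2.70 on the log2 scale for E7.2 against parental cells (1.41, adjusted p = 0.346), a difference that was 0.75 (adjusted p = 0.506) without both deviating libraries. Cd38 had between 0 and 6 counts per library. A count of 3 corresponds to 0.0751 to 0.118 CPM in these libraries, the level below which a transcript cannot be told from absence, and the Cd38 mean of each line, from 0.0766 to 0.112 CPM, lay at about that floor. No fold change is given for it, and a difference between lines was not detectable at this depth.

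**Figure D2:**
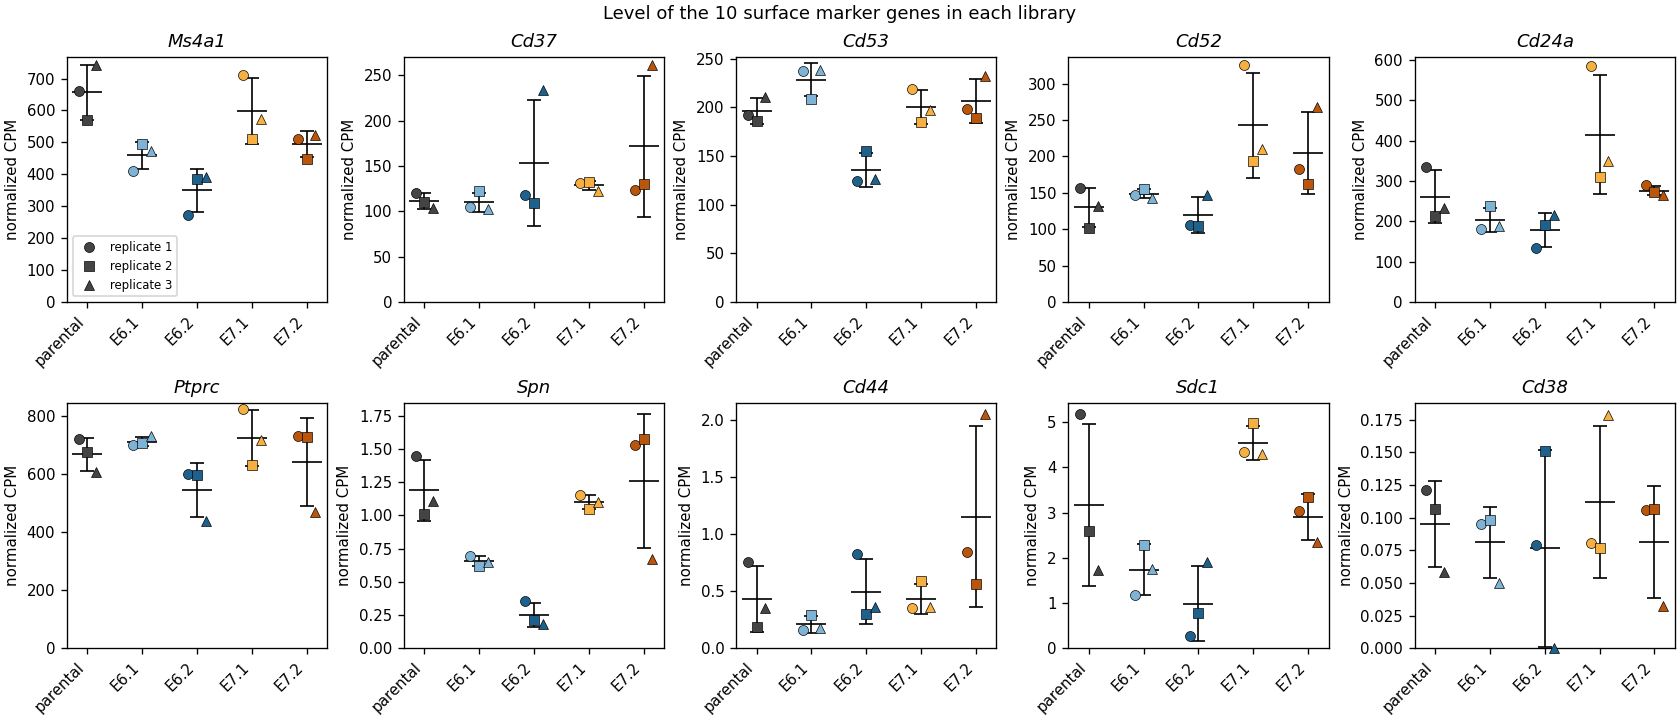
Normalized CPM of each gene (linear axis from 0, own scale per panel) in the 3 libraries of each line. Symbols mark the replicate number, and the horizontal line and bars give the mean ± SD. In clones E6.2 and E7.2 replicate 3 is the highest Cd37 library at 234 and 261 CPM, and the lowest for Ptprc and Spn.

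**Figure D3:**
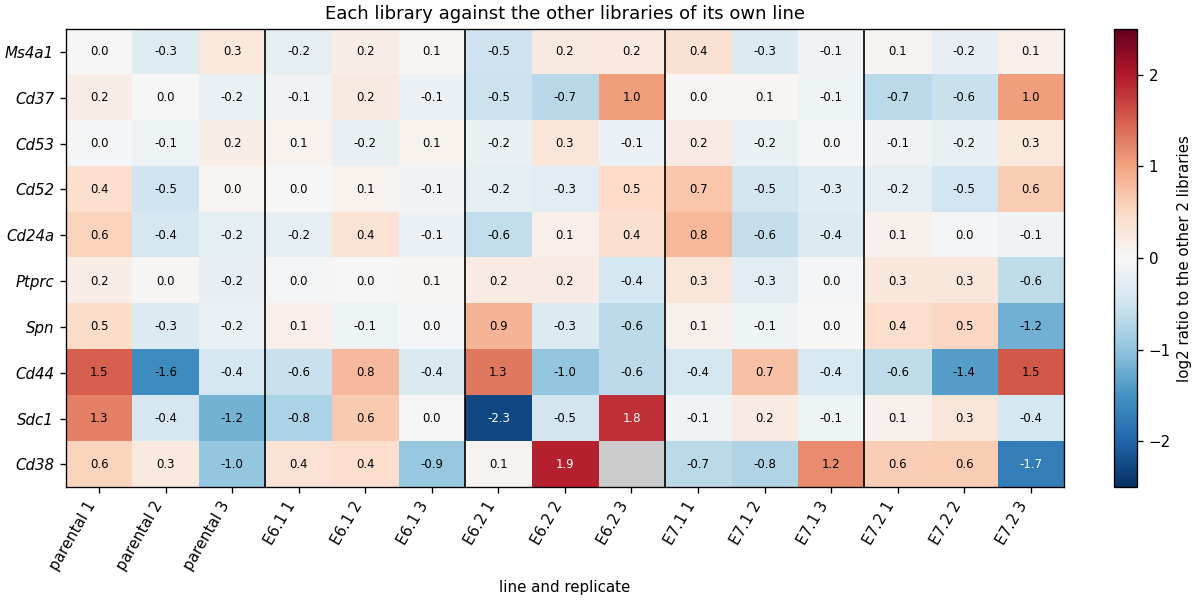
log2 ratio of each library's CPM to the mean of the other 2 libraries of its line, for the 10 genes (rows) and 15 libraries (columns), with Cd38 in E6.2 replicate 3 left gray for a count of 0. The Cd37 ratio is 2.06-fold in replicate 3 of both E6.2 and E7.2, while Sdc1 is high in the first and Cd44 in the second.

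The first question of the design is how each clone differed from parental cells, in 4 comparisons that share the same 3 parental libraries. For the members, E6.2 was the one clone with a call. Lower Ms4a1 and Spn made 2 of the 9 tested members there, where 1.17% of all tested genes were called (1.01% lower). The other clones had 0 of 9 called by edgeR, where 1.22% of tested genes were for E7.1, 0.324% for E6.1 and 0.295% for E7.2. At an unadjusted p under 0.05 there were 5 members for E6.2 (13.1% of all tested genes), 3 for E7.2 (13.3%), 2 for E6.1 (6.71%) and 2 for E7.1 (19.95%). DESeq2 called 4 members for E6.2, where it called 2.86% of all genes, 1 for E7.1 (8.32%) and 0 for E6.1 (1.11%) and E7.2 (1.83%), adding Cd53 and Sdc1 in E6.2 and Cd52 in E7.1. The median log2 difference of the 9 members was -0.53 for E6.2 and -0.36 for E6.1, beside 0.06 and -0.000810 over all tested genes, and 0.12 for E7.1 and 0.08 for E7.2, beside -0.02 and 0.00430. In E6.2, 7 of the 9 members were below 0, where 56.7% of all tested genes were above 0. In E7.1, 7 were above 0, beside 47.8% of all tested genes. All E6.2 libraries were below all parental libraries for Ms4a1, Spn, Cd53 and Ptprc, 4 of 9, a separation seen in that direction for 8.61% of tested genes. Such separations numbered 2 of 9 below in E6.1 (Ms4a1 and Spn, background 11.2%), 2 above in E7.1 (Cd52 and Cd37, 16.4%), and 2 above (Cd52 and Cd37, 10.8%) and 1 below (Ms4a1, 13.3%) in E7.2.

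**Figure D4:**
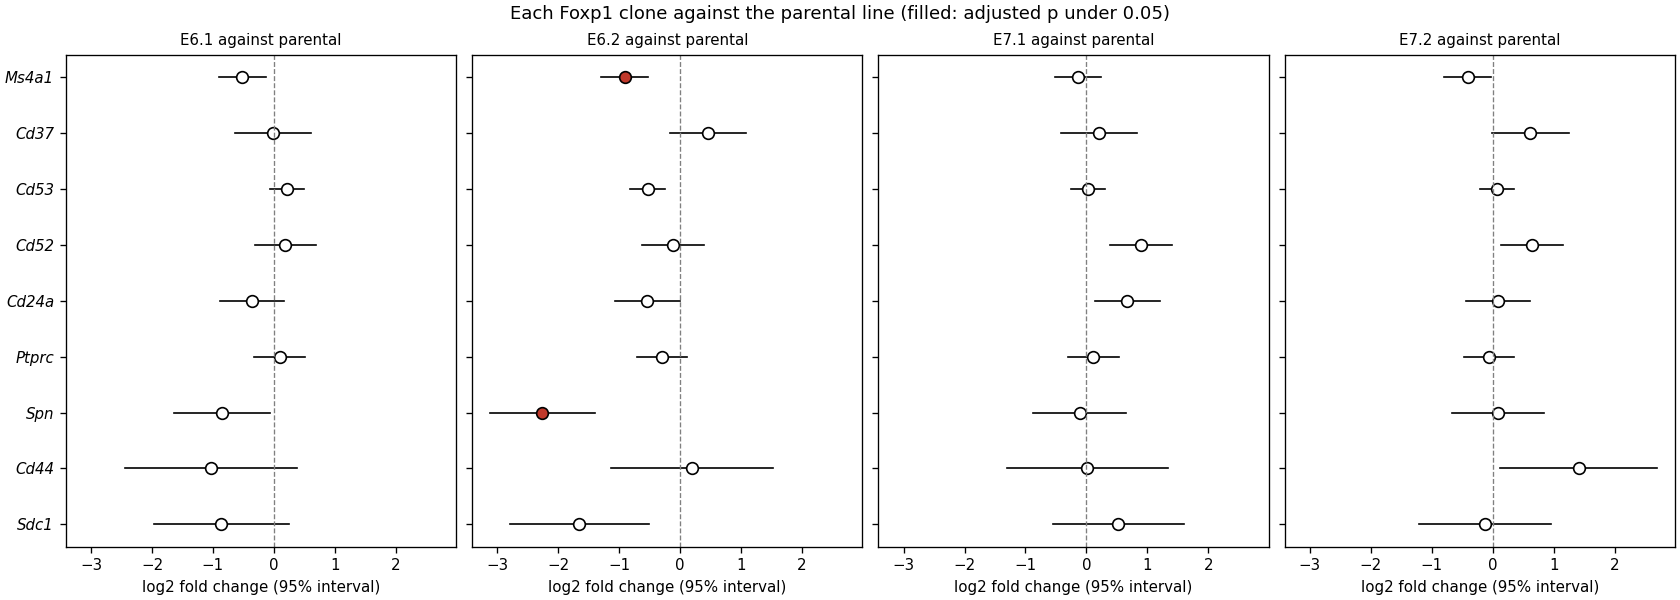
log2 fold change of the 9 tested members in each clone against parental cells (points), with 95% intervals (lines), from the edgeR fit of all 15 libraries. Filled points passed an adjusted p of 0.05. They are Ms4a1 at -0.91 and Spn at -2.26, both in E6.2.

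Clones of the same exon were compared with each other to show how far 2 clones can differ. Between E6.2 and E6.1, Cd53 was called lower, 1 of 9 members, against 1.24% of all tested genes (0.762% lower). For Ms4a1 (-0.39, 95% interval -0.78 to -0.01, adjusted p = 0.378) and Spn (-1.41, -2.28 to -0.54, adjusted p = 0.130) the difference between these clones did not pass the threshold, although all E6.2 libraries were below all E6.1 libraries for both. Such a separation held for 4 of 9 members below (Cd53, Ms4a1, Spn and Ptprc, background 10.2%) and 1 above (Cd44, 7.34%). Between E7.2 and E7.1 no member was called by edgeR or DESeq2, where 0.59% of tested genes were called by edgeR. At an unadjusted p under 0.05 there were 2 members and 13.3% of tested genes. In that pair, all E7.2 libraries were below all E7.1 libraries for Cd24a (-0.59, 95% interval -1.12 to -0.06) and Sdc1 (-0.64, -1.72 to 0.44), 2 of 9, beside 12.7% of tested genes.

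Of the comparisons between pairs of lines or exons, that of the exon 7 with the exon 6 clones had the most members called. The mean of E7.1 and E7.2 was above that of E6.1 and E6.2 for all 9, beside 46.3% of all tested genes. The median log2 difference of the members was 0.74, beside -0.03 over all tested genes. Of the 9, 5 were called, all higher, where 12.1% of tested genes were called and 6.21% were higher. The share over all genes rested on single libraries, from 2.77% without E6.1 replicate 1 to 26.8% without E6.2 replicate 3. Spn was higher in the exon 7 clones by 1.55 (SE 0.27, 2.92-fold, edgeR quasi-likelihood adjusted p = 0.00519). Sdc1 was higher by 1.46 (SE 0.37, 2.75-fold, adjusted p = 0.0246) and Cd24a by 0.83 (SE 0.18, 1.77-fold, adjusted p = 0.0132). Cd52 was higher by 0.74 (SE 0.17, 1.67-fold, adjusted p = 0.0162) and Ms4a1 by 0.44 (SE 0.13, 1.36-fold, adjusted p = 0.0407, all edgeR). Against parental cells edgeR called no member higher in an exon 7 clone. The Ms4a1 means of both exon 7 clones (598 and 494 CPM) were below the parental mean (658 CPM). Spn stood at 1.10 (E7.1) and 1.26 CPM (E7.2), beside 1.19 CPM in parental cells. For Cd52 and Cd24a the means of both exon 7 clones were above the parental mean. For Cd52, Cd24a and Sdc1 all 6 libraries of the exon 7 clones were above all 6 of the exon 6 clones, a separation seen in that direction for 1.81% of tested genes. For Spn and Ms4a1 the libraries of the exon 7 and exon 6 clones overlapped. Cd44 (1.13, adjusted p = 0.101), Cd53 (0.21, 0.149), Cd37 (0.19, 0.562) and Ptprc (0.13, 0.547) were not called.

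These tests weigh libraries, and there were 2 clones of each exon. With clones as the unit, both exon 7 clones were above both exon 6 clones for 5 of the 9 tested members (Ms4a1, Cd52, Cd24a, Spn and Sdc1), beside 21.1% of all tested genes, and the smallest two-sided p that an exact permutation of 2 against 2 clones can give is 0.333. Exon and clone therefore cannot be told apart. Cd24a and Spn were called in all 22 alternative fits of this comparison. The added 2-fold threshold, which is not among these fits, kept Spn and Sdc1 alone. Cd52 was lost without E6.1 replicate 1 (adjusted p = 0.0521) or replicate 3 (0.0529). Sdc1 was lost in 7 of the 22, each leaving out 1 library: replicates 1 and 3 of E6.1 (0.0793 and 0.0681), replicate 2 of E6.2 (0.0556), replicates 1 and 2 of E7.1 (0.0509 and 0.0507) and replicates 1 and 2 of E7.2 (0.0555 and 0.0639). Ms4a1, closest to the threshold, was lost in 13, with adjusted p up to 0.121 without E6.1 replicate 1 and log2 values from 0.37 to 0.48 in those fits. Without both deviating libraries all 5 kept their calls and Cd37 was added at 0.22 (adjusted p = 0.0433), in a fit that called 33.1% of all tested genes. A test of any difference among the 5 lines called Ms4a1, Cd52, Cd24a, Cd53 and Spn, 5 of the 9, where 6.28% of tested genes were called. Spn alone of these 5 was also called in all 21 alternatives of that test.

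**Figure D5:**
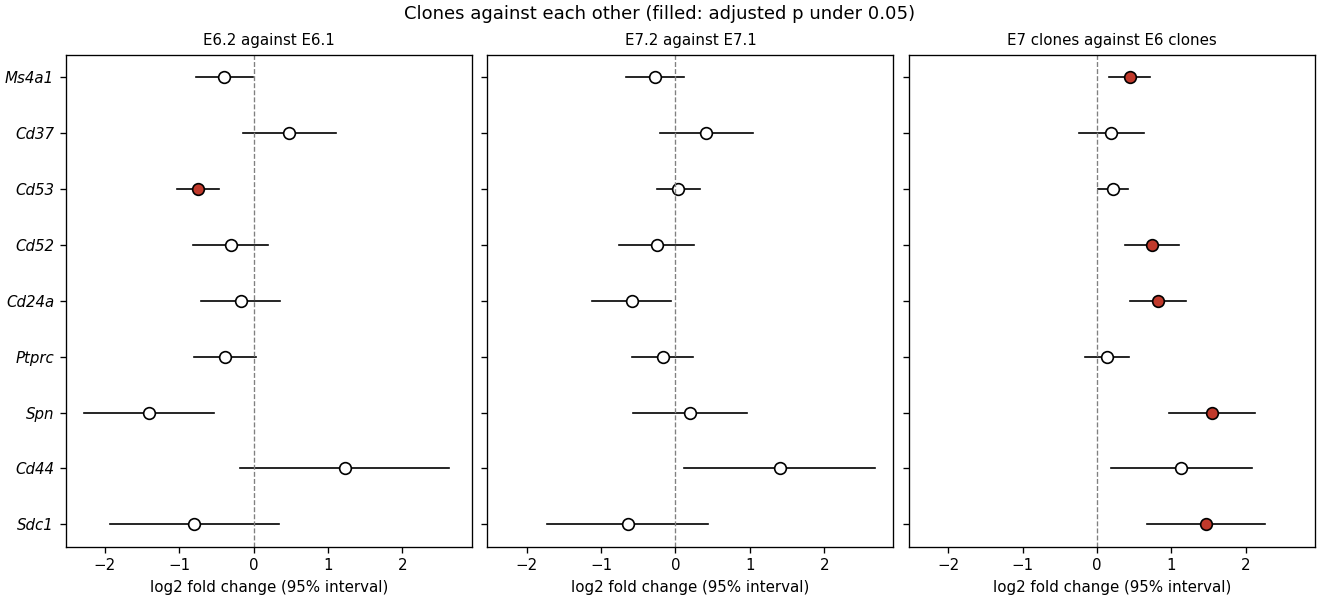
log2 fold change of the 9 tested members between the clones of exon 6, between the clones of exon 7, and between the means of the exon 7 and exon 6 clones, with 95% intervals. Filled points passed an adjusted p of 0.05, 1 in the first panel (Cd53), 0 in the second and 5 in the third, where every point lies above 0.

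Pathway and family partners were taken as 11 lists with 185 different genes, 135 of which were tested. Against parental cells, 4 of the 135 were called in E6.2 (2.96%) and 3 in E7.1 (2.22%), all lower, and 0 in E6.1 and E7.2. DESeq2 called 11, 17, 1 and 6 of them, in the same order of clones, beside 2.86%, 8.32%, 1.11% and 1.83% of all tested genes. Of the 4 in E6.2, 2 were left without E6.2 replicate 1, where 0.845% of all tested genes were called. Among the 18 tested of other antibody targets in lymphoid tumors, Cd200, which encodes an inhibitory ligand of myeloid cells, fell in E6.2 from 179.8 ± 23.0 to 73.1 ± 11.5 CPM (log2 fold change -1.30, SE 0.14, adjusted p = 0.000119), and Tnfrsf13c, the BAFF receptor gene, from 25.8 ± 6.53 to 12.8 ± 0.831 CPM (-1.0, SE 0.20, adjusted p = 0.0227). In the list of markers of the B-to-plasma-cell transition, to which Sdc1 belongs by function, 2 of 11 fell in E6.2: Prdm1, encoding Blimp-1, from 11.3 ± 1.78 to 1.89 ± 0.317 CPM (-2.58, SE 0.46, adjusted p = 0.0108) and Irf4 from 44.2 ± 5.98 to 14.2 ± 3.73 CPM (-1.64, SE 0.25, adjusted p = 0.00333). These were the 4 partners called there.

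In E7.1 the partners that fell were 1 of 19 co-receptors and pan-B markers, the early activation antigen gene Cd69, from 13.5 ± 2.69 to 4.69 ± 1.37 CPM (log2 fold change -1.53, SE 0.31, adjusted p = 0.0387), 1 of 11 NAD and ectonucleotide genes, the ATP-gated channel gene P2rx7, from 2.14 ± 0.358 to 0.226 ± 0.0869 CPM (-3.22, SE 0.62, adjusted p = 0.0279), and Ms4a6b, from 1.54 ± 1.16 to 0.0992 ± 0.0251 CPM (-3.90, SE 0.82, adjusted p = 0.0398, all edgeR with Benjamini-Hochberg adjustment). Ms4a6b belongs to the same family as Ms4a1, of which 4 of 15 other members were tested and 1 was called. Its E7.1 level lay at about the detection floor, so the fitted fold is not a bound. The E7.1 calls rested on single libraries, as did the share over all tested genes (1.22% with all libraries). Without replicate 2 or 3 of the parental line, replicate 1 or 3 of E6.1, or replicate 1 or 3 of E7.1, 0 partners were called, beside 0.209% to 0.403% of all tested genes. Without E6.2 replicate 3, 17 were called, beside 7.05%. No gene of the other lists, namely tetraspanins (12 tested), partners and substrates of CD45 (14), CD44 ligands and linkers (12), syndecans and heparan sulfate enzymes (12), sialomucins and CD43 linkers (7) and GPI anchor assembly (26), was called by edgeR in a clone against parental cells.

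Between the exon 7 and exon 6 clones, 25 of the 135 partners were called (18.5%, 14 higher and 11 lower), beside 12.1% of all tested genes. The plasma-cell transition list had the most, 5 higher and 1 lower of 11, with a median log2 difference of 0.52 beside -0.03 over all genes. It mixes genes of both ends of the transition, Pax5 and Spib being also among the B-cell markers used above. Its counts and median therefore do not describe a single cell state. In that list edgeR called Fkbp11 (1.36, adjusted p = 0.0438), Spib (0.56, 0.0216) and Bcl6 (0.52, 0.0465) higher and Bach2 lower (-1.26, 0.0109). These were named after their values were seen. Prdm1 (1.33, SE 0.31, adjusted p = 0.0190) and Irf4 (1.02, SE 0.18, adjusted p = 0.00472) were called higher there too, as Sdc1 was. E7.1 and E6.1 were alike in both, with 6.56 ± 2.90 and 6.14 ± 1.70 CPM for Prdm1 and 35.0 ± 6.87 and 34.2 ± 7.28 CPM for Irf4, while E6.2 was the lowest line. Cd200 (0.81, SE 0.09, adjusted p = 0.000259) and Tnfrsf13c (1.25, SE 0.14, adjusted p = 0.000212) were called higher as well, among the antibody targets, of which 3 were lower and 2 higher. For Cd200, E7.1 at 159 ± 5.08 CPM was below E6.1 at 181 ± 9.01, with E6.2 the lowest line and E7.2 the highest at 255 ± 7.997 CPM. Co-receptors had 2 lower and 2 higher, CD45 partners 2 higher, syndecans and heparan sulfate enzymes 1 of each, and the Ms4a family 1 lower. Tetraspanins, CD44 linkers and sialomucins had 1 higher each, Ezr being the gene of the latter 2 lists, and the NAD list had 0. Of the 26 genes of GPI anchor assembly, 4 were called and all 4 were lower, with a list median of -0.27. Over all tested genes 12.1% were called in this comparison, 813 of 13904 being lower. A link of the list to the GPI-anchored markers Cd52 and Cd24a was not tested. The 4 called genes of the list, named after their values were seen, are Pigm (-0.58), Dpm1 (-0.84), Pigv (-0.66) and Pigc (-0.35).

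Among the 9 tested members, pairs were described by Pearson's r of log2 CPM over the 15 libraries, which share their lines, so that the values give no test. The closest pairs were Cd24a with Sdc1 (r = 0.839), Cd52 with Cd24a (0.814) and Ms4a1 with Sdc1 (0.760). The genes of all those tested that followed a member most closely were Ikbip for Ms4a1 (0.919), Manf for Cd52 (0.964), Impa1 for Cd24a (0.985), Spin1 for Cd53 (0.960), Ifit2 for Ptprc (0.955), Tln2 for Spn (0.939), Snx14 for Sdc1 (0.954) and Spata2l for Cd44 (0.866). Lactb, Tmsb4x, Tpm3-rs7, Armh3, Gins3, Adgrl2, Hps6 and Caprin2 came next in the same order. No member was the closest gene to another.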

How the data were processed

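Messenger RNA of 15 libraries (5 lines of 3) was sequenced. Per the labels and the study's methods, the authors aligned paired reads to mm10 with HISAT, used SAMtools, and deposited unnormalized counts per gene from featureCounts 1.5.0, without strand, so antisense genes cannot be told apart. Of 41480 features, 92 spike-ins had a count of 0 and were left out. Here edgeR 4.0.16 (R 4.3.3, limma 3.58.1) was used: filterByExpr, TMM factors and 1 quasi-likelihood fit of the 15 libraries. P-values were adjusted by Benjamini-Hochberg over 13904 genes, with calls at an adjusted p under 0.05. CPM and RPKM were computed from the counts with TMM library sizes and exonic lengths. Intervals are 95%. The steps were tested on simulated data. DESeq2 1.42.0, other scalings and filters, fewer lines, a replicate block and leaving out libraries were alternatives.

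All members and Foxp1 were named, as were up to 4 genes of each companion list called in a clone against parental cells and the 2 most correlated genes of each member. Predicted genes, immunoglobulin segments and some items not reported here were passed over. The members and lists were chosen with earlier results of these data known. Libraries came from separate passages of one line, so p-values measure the spread between passages.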

Additional observations from a re-analysis of the deposited data

Results flagged for a closer look

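Among the members, 6 differences between clones or between means of 2 clones passed a test of the difference itself. Cd53 was lower in E6.2 than in E6.1, 2 clones with the mutation in the same exon, by a log2 fold change of -0.75. There 1.24% of all tested genes were called. Between the exon 7 and exon 6 clones, the log2 fold change was 1.55 for Spn, 1.46 for Sdc1, 0.83 for Cd24a, 0.74 for Cd52 and 0.44 for Ms4a1, all higher in the exon 7 clones. In that comparison 12.1% of all tested genes were called. Its test weighs libraries, and a permutation of 2 against 2 clones cannot give a p under 0.333. With 3 libraries in each line, no library was tested as an outlier of its line.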

How the results depend on the processing

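The 2 members called in E6.2 against parental cells became 4 with DESeq2 (2.86% of all tested genes), 1 with an added 2-fold threshold (0.949%) and 0 in a fit of only the lines compared (0.34%). When 1 library was left out they became 0 to 3 (0.584% to 1.59%). The 0 in E7.1 against parental cells became 1 (Cd52) with DESeq2, with no filter on low counts or without both E6.2 replicate 3 and E7.2 replicate 3 (8.32%, 1.38% and 15.2% of all tested genes). It was 0 to 1 when 1 library was left out (0.209% to 7.05%). The 1 in E6.2 against E6.1 became 0 with only those lines compared (0.524%) or with the 2-fold threshold (1.04%), and 0 to 1 without 1 library (0.73% to 2.09%). The 5 between exon 7 and exon 6 clones became 2 with the 2-fold threshold (3.24%) and 2 to 5 without 1 library (2.77% to 26.8%). They became 6 without both deviating libraries, where 33.1% of all tested genes were called. The 5 that differed among the lines became 1 to 6 without 1 library, where 2.45% to 20.2% of all tested genes were called. The counts of 0 in E6.1 and E7.2 against parental cells and in E7.2 against E7.1 stayed at 0 in every alternative run. At most 1.11%, 1.83% and 2.06% of all tested genes were called there, each with DESeq2.

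Directions turned in differences not called with all libraries, of which Cd37 between exon 7 and exon 6 clones was called without both deviating libraries (0.22). Leaving out libraries gave log2 values from -0.099 to 0.037 for Cd37 in E6.1 against parental cells, and in E6.2 from -0.31 to 0.036 for Cd52 and -0.38 to 0.89 for Cd44. For E7.1 they ran from -0.35 to 0.71 for Cd44, -0.037 to 0.087 for Cd53 and -0.21 to 0.071 for Spn. For E7.2 they ran from -0.038 to 0.33 for Cd24a, -0.16 to 0.16 for Ptprc, -0.10 to 0.42 for Spn and -0.41 to 0.46 for Sdc1. Between E7.2 and E7.1 the ranges were -0.0091 to 0.61 for Cd37, -0.48 to 0.019 for Cd52, -0.038 to 0.11 for Cd53 and -0.27 to 0.024 for Ptprc, and between exon 7 and exon 6 clones -0.00194 to 0.42 for Cd37. Without both deviating libraries, Ptprc (0.16) and Sdc1 (0.05) turned in E7.2 against parental cells, and Cd37 (-0.0091), Cd53 (-0.038) and Ptprc (0.024) in E7.2 against E7.1. The cause was not tested.

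The replicate numbers were not taken as pairing the samples: the mean correlation of deviations between a clone and parental libraries of the same number was 0.134 for E6.2, 0.101 for E7.2, -0.0127 for E7.1 and -0.0286 for E6.1. E6.2 and E7.2, which are not compared alone, correlated at every number (0.174, 0.276 and 0.426). Unlike numbers did as well for E6.2 replicate 2 with E7.2 replicate 1 (0.311) and E6.2 replicate 1 with E7.2 replicate 2 (0.170). The unlike pairs that include a replicate 3 ran from -0.366 to -0.214. Deviations are taken from the mean of each line of 3, so the values at numbers 1 and 2 are not independent of that at 3. With the number as a replicate block in edgeR, 4 members were called between exon 7 and exon 6 clones, without Ms4a1 (adjusted p = 0.0522), beside 10.1% of all tested genes. Among the lines 3 were called, without Ms4a1 (0.0558) and Cd24a (0.0651), beside 5.23%. The other counts of members did not move.

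Counting error is large for Spn, Cd44 and Cd38, and a difference in Cd38 was not detectable at this depth.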
